A study of Mus musculus with 2 samples.

Results

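Long reads show where a transcript ends as well as how it is spliced, and 817 of the 34974 spliced transcript models read in both libraries of this mouse adrenal gland data belong to a class defined by a missing 3′ part. The class is the ISM Prefix class of the TALON program. ISM stands for incomplete splice match, and a Prefix model keeps the first introns of another model of its gene in order and lacks the introns after them. The 817 models were chosen as multi-exon Prefix models of annotated genes whose intron chain had at least 1 read, and the same class, in each library. Read counts therefore chose them, and their presence in both libraries is not a result. They lie in 707 genes, of which 635 have 1 model, 52 have 2 and 20 have 3 or more. Protein-coding genes hold 797 of the models (97.6%).

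The adrenal glands came from female B6CASTF1/J mice at 14 days of age; the strain is the first generation of a C57BL/6 by CAST cross. The libraries are biological replicates 1 and 2 of the only group, with no treatment or control. The tissue sample of replicate 1 is named for 3 females and that of replicate 2 for 1 female, although both library descriptions speak of 3, so the number of animals behind each is not settled. Tests and intervals on reads compare these 2 libraries, not animals. They cover counting error at most. The reads carry no molecular identifiers and copies of 1 molecule cannot be told apart, so intervals may be too narrow and p-values too small.

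The 3′ end of most messenger RNAs is made by cleavage and polyadenylation downstream of a short signal, usually the hexamer AATAAA or its variant ATTAAA in DNA letters. Genes often hold more than one such site: use of a site within an intron gives a shortened transcript, and an intron that is not removed is carried into the last exon. When cDNA synthesis is primed with oligo-dT, a run of A inside an RNA can also be primed; the priming used for these libraries is not given in the sources used here. A read can also stop early in an RNA that broke or was still being made.

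Annotated genes without spike-ins held 1065570 reads in replicate 1 and 946553 in replicate 2. All 6 adrenal cortex markers and all 5 medulla markers looked up had reads in both libraries, and the 3 kidney tubule markers had none. Replicate 2 stood apart: its 7 hepatocyte markers summed to 49097 CPM (reads scaled to the same total of gene reads) against 440.1 in replicate 1, and its 6 adrenal cortex markers to 24182 against 54122. Its 5 skeletal muscle markers summed to 1501 against 52.6 CPM, with Myh1 and Tnnt3 at 0 reads in replicate 1. The 2 brown adipocyte markers (3375 and 4423 CPM in replicates 1 and 2) and the 2 erythroid markers (8903 and 2837 CPM) were present in both. Fewer cells of a type and less RNA per cell cannot be told apart in such bulk samples. Genes that differed over 16-fold in CPM, 424 in number, held 0.223% of the gene reads of replicate 1 and 15.6% of those of replicate 2, so shares of gene reads are given with and without them.

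The sequences at the ends differ by where a model stops, and a few show what is described below. They were read from GENCODE M21 transcripts on mm10, 5′ to 3′ on the strand of the gene, and are 30 bases each. The first set gives the last 30 bases of models that stop at a 3′ end annotated in their gene, with the hexamer in capitals. Only models with a hexamer in those bases were picked for this set. Mbd3 and Qsox2 are shown for a last exon that runs through an annotated intron, Sptb because it had the most reads, and Caprin1, Sik3 and Ankrd11 because the annotated end they use lies in an intron of the longer transcript.
Mbd3, chr10:80392539-80392568, minus strand: ttcAATAAActgatggtaggaacttgtgaa
Qsox2, chr2:26209125-26209154, minus strand: taagAATAAAgaaatttgacatttagtaaa
Sptb, chr12:76596130-76596159, minus strand: ttgggaggAATAAAatttgcttaaatctga
Caprin1, chr2:103767107-103767136, minus strand: cactcAATAAAtacttgttgaatgaatgaa
Sik3, chr9:46202856-46202885, plus strand: agggaagttgaAATAAAatggttttcatgg
Ankrd11, chr8:122897020-122897049, minus strand: atgtaaatgaaaataAATAAAccagcttac
The hexamer begins between 15 (Ankrd11) and 27 (Mbd3) bases before the end in these 6 models, counted from its first base to the last base of the model.

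A second set gives models that stop inside an annotated exon at no annotated end, again with the last 30 bases and the hexamer in capitals. Luc7l2 and Fzd3 were picked from models with a hexamer in those bases and the same end base in both libraries. They do not show how common a hexamer is at such ends, and that share is given below.
Luc7l2, chr6:38603847-38603876, plus strand: tcctttcATTAAAagcattgtttagctttg
Fzd3, chr14:65235247-65235276, minus strand: gcgatgAATAAAattgaaggtgacaatatt
Another set gives the last 10 bases of a model and the 20 bases that follow it in the gene, with the longest run of A past the end in capitals. Son and Fam120b are shown for the A content of what follows their ends.
Son, chr16:91654690-91654719, plus strand: aaagaagcatAAAAAgcacaaaaacaaaaa
Fam120b, chr17:15404017-15404046, plus strand: atacattttcAAAAAAAAttagaagtaatt
Of the 20 bases past the end, 16 are A in Son and 13 in Fam120b. The Fam120b model also has an AATAAA that begins 15 bases before the same end. The last set has the same layout for models that stop exactly at the last base of an annotated exon, with the first 2 bases past the end in capitals.
Kmt2e, chr5:23493498-23493527, plus strand: aacaaagaagGTatgcgtcctaacgacagt
Hcfc2, chr10:82739256-82739285, plus strand: tggcttcaagGTaacagtaagaaagctcct
Qrsl1, chr10:43881453-43881482, minus strand: tattaaaagaGTaagacaattgcttttaga
The GT that opens an intron at its 5′ splice site follows the end in each of these 3.

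The models held a small share of gene reads. They drew 3103 reads in replicate 1, which is 0.291% of gene reads (exact 95% Clopper-Pearson interval 0.281 to 0.302%), and 2192 reads in replicate 2, which is 0.232% (0.222 to 0.241%). The mean share was 0.261% ± 0.0422 (SD, n = 2). Without the 424 genes that differed over 16-fold, which hold 2 of the models, the shares were 0.292% and 0.274%. The hepatocyte and plasma protein list, with 11.6% of the gene reads of replicate 2, held 0 of the models. That list had 110024 reads in replicate 2 and only 2889 in replicate 1. The rule asks for a read in each library, so genes with few reads in 1 of them could hardly hold a model. The low counts in this list and in the 424 genes therefore do not show that such models are lacking there.

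Most models were thinly read. In 286 of them each library gave exactly 1 read, and 369 models in replicate 1 and 474 in replicate 2 rested on 1 read there. The 44 models with 20 or more summed reads held 35.8% of the reads of all 817. Prefix chains seen in a single library were more numerous, with 2862 in replicate 1 alone and 2009 in replicate 2 alone; of these, 86 and 75 were read in the other library under another class. The 817 models were 22.2% of the Prefix chains of replicate 1 and 28.9% of those of replicate 2, and held 44.4% and 46.6% of their reads. The median model had 2.78% of the reads of its gene in replicate 1 and 3.03% in replicate 2. The lower bound of the rule is 1 read in each library, so models just inside it have 1 read each and those just outside have 1 or more in a single library, up to 122 in replicate 1 and 44 in replicate 2.

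Counted over every multi-exon Prefix model, whether shared or not, the class drew 0.656% of all gene reads (replicate 1) and 0.497% (replicate 2). The ratio of replicate 2 to replicate 1 was 0.757 (Fisher's exact test on reads, two-sided, adjusted p = 7.4e-50 over 7 classes). Without the genes that differed over 16-fold the ratio was 0.842 (adjusted p = 4.3e-19, the same exact test). The hepatocyte and muscle markers move with this difference, and the part of their RNA in what remains of it was not tested. The Suffix class, whose models lack introns at the 5′ side, drew 7.28% and 6.97% in the same libraries, and Known models 76.1% and 78.2%.

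The name of the class did not describe where its models stop. Of the 817 models, 468 (57.3%) in replicate 1 and 469 (57.4%) in replicate 2 stopped at exactly the 3′ end of a transcript annotated in the same gene, 437 of them in both libraries. They lack 3′ introns of a longer model, and not every annotated 3′ end. Of 8218 Suffix chains read in both libraries, 7287 (88.7%) and 7292 (88.7%) stopped at an annotated end, and the same holds for all 15365 Known chains, whose coordinates are those of the annotation. These shares are set side by side with no test, since models are not replicates. At the 5′ side, 799 of 817 models (97.8%) in replicate 1 and 796 (97.4%) in replicate 2 began at exactly an annotated start. A Prefix model keeps the first introns of another model by definition, which in part sets this share. Whether starts close to an annotated coordinate were placed on it was not tested, so the share does not show that the 5′ ends are complete.

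The distances to annotated ends had a gap. Only 10 models in replicate 1 and 12 in replicate 2 stopped 1 to 300 nt from an annotated 3′ end, while 25 and 15 stopped from there to 400 nt away. Exon ends had the same shape: among models off every annotated 3′ end, 107 and 109 stopped exactly at the last base of an annotated exon, 28 and 32 within 1 to 300 nt of one, and 43 and 28 from there to 400 nt. Each table gives 1 end per model, not the ends of its reads. Whether reads ending close to an annotated coordinate were placed on it when the models were built was not tested, so a stop at an exact annotated coordinate covers an unknown range around it.

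**Figure D1:**
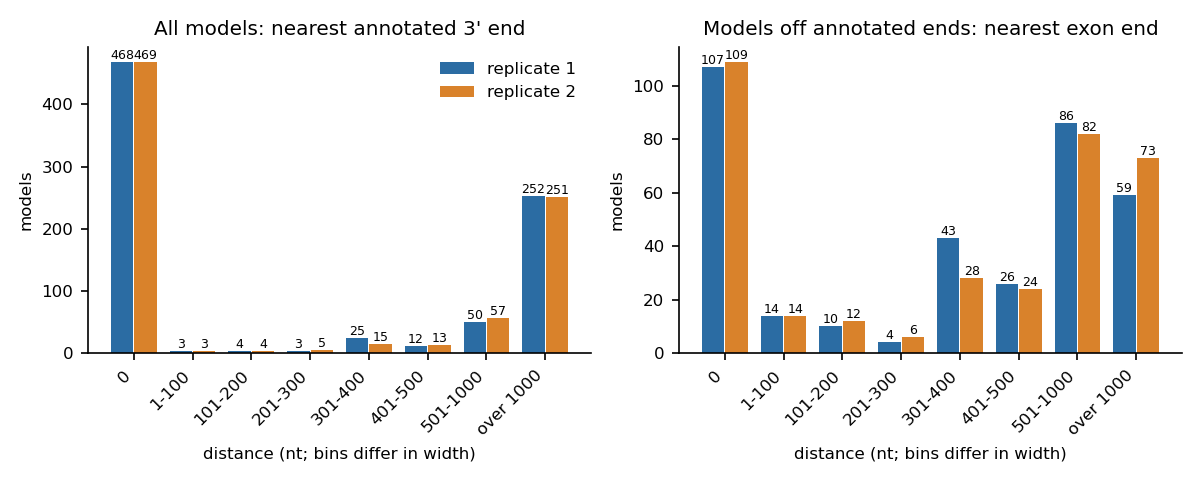
Number of models by the distance in nt from their 3′ end to the nearest annotated 3′ end of the gene (left, all 817 models) and, for models off every annotated 3′ end, to the nearest end of an annotated exon (right), in replicate 1 (blue) and replicate 2 (orange); bins differ in width. In both panels the bin at 0 nt is high, the 3 bins from 1 to 300 nt are low, and the counts rise again beyond 300 nt.

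Set against the annotated transcripts that begin with the same introns, called parents here, 752 models had at least 1 parent. Of these, 438 (58.2%) in replicate 1 and 450 (59.8%) in replicate 2 stopped in an exon of a parent, 282 (37.5%) and 272 (36.2%) in an intron of the parents, and 32 (4.26%) and 30 (3.99%) past the end of every parent. The remaining 65 models had no annotated parent: their chain is not the beginning of any annotated chain of the gene, and 11 of them lie inside one. The exon and intron shares depend on the reference, because an intron of one transcript can be the last exon of another. When any annotated exon of the gene counted, the intron share fell to 19.4% and 19.3%.

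**Figure D2:**
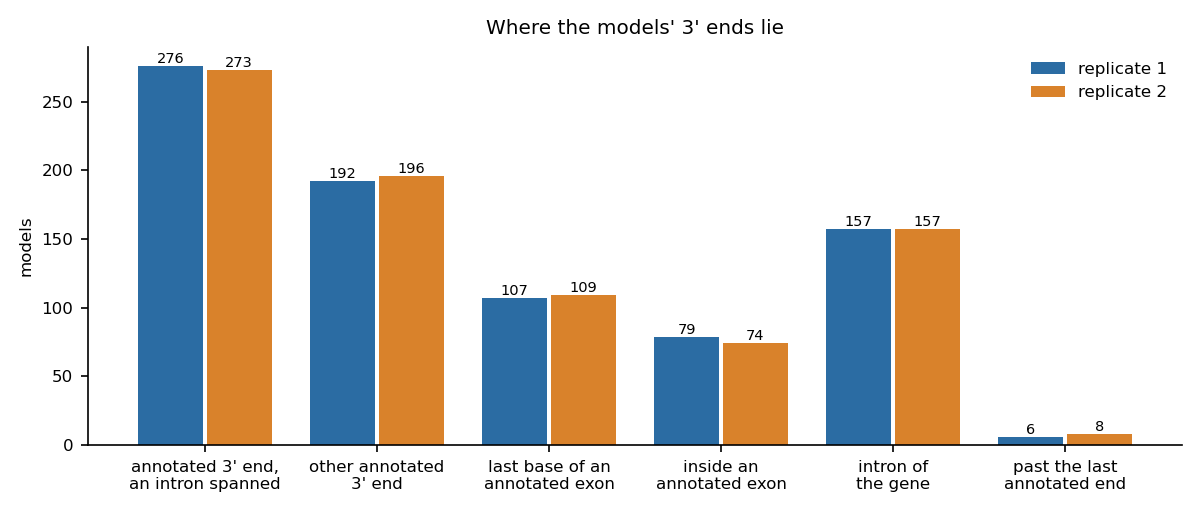
Number of the 817 models by where the 3′ end lies in replicate 1 (blue) and replicate 2 (orange), with the count on each bar. Annotated 3′ ends lead with 276 and 273 models that span an intron and 192 and 196 others. In each library 157 models stop in an intron of the gene, outside its annotated exons.

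The largest kind was intron retention up to an annotated end: 276 models in replicate 1 and 273 in replicate 2 had a last exon that ran through at least 1 intron of a parent and stopped at an annotated 3′ end. In replicate 1, 227 of the 276 spanned 1 intron, 49 spanned 2 to 4, and 268 spanned every intron that the chain lacks. The parent's own 3′ end was the stop in 149. These models lacked a median of 1 intron, and the first missing intron lay in the coding part of the parent in 220 and in its 3′ UTR in 32. In 84 of the 276 every spanned intron lay within an exon of some annotated transcript of the gene, and in 171 no spanned intron did.

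Spanned introns were shorter than the introns the same models had spliced out. The 344 spanned introns had a median of 375.5 nt (quartiles 141.25 and 885.75 nt) and the 1716 spliced ones a median of 668.5 nt (192 and 1818.25 nt). The shortest spanned intron was 1 nt as annotated and the shortest spliced one 67 nt, and no minimum length was set. Within a model, the median spanned intron was the shorter in 199 of 276 (72.1%). Introns of a gene with several models are counted more than once, so the lengths are given as a description with no test. Only introns crossed in full are counted as spanned, and models that stop within an intron are sorted into another kind. The first missing intron had a median of 408.5 nt here and 3723 nt in that kind, so the difference depends on the sorting. Spanned introns also lie 3′ of the spliced ones, and the part of position was not tested.

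**Figure D3:**
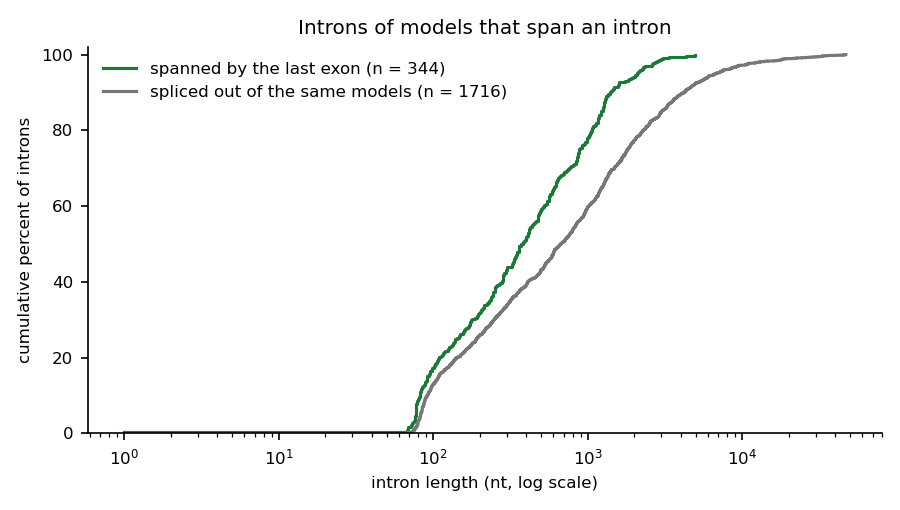
Cumulative percent of introns by length in nt (log scale) for the 344 introns spanned by the last exon (green) and the 1716 introns spliced out of the same 276 models (grey), ends of replicate 1. The spanned introns lie to the left, with a median of 375.5 against 668.5 nt.

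Several well-read models are of this kind. Here and below, ± is the SD of the shares of the 2 libraries, which can lie far below the counting error of each share. A share is that of the named model, and some of the genes have further models of the class. Mbd3, a subunit of the NuRD chromatin complex, had a 6-exon model with 27 of 187 gene reads in replicate 1 and 21 of 121 in replicate 2, a share of 15.9% ± 2.06 (SD, n = 2), which spanned an intron of 76 nt in the 3′ UTR. Srsf2, an SR protein that acts in splicing, had a 2-exon model with 29 of 399 and 19 of 246 reads (7.50% ± 0.322) across a 1059-nt intron of the 3′ UTR, ending where an annotated retained-intron transcript ends. Both models stopped at the same base in both libraries, and in both the spanned intron lies within an exon of another annotated transcript of the gene.
Qsox2, a sulfhydryl oxidase, had a 12-exon model with 19 of 29 and 15 of 23 reads (65.4% ± 0.212) across a 1480-nt intron, against 6 and 4 reads on its spliced Known models. That intron also lies within an exon of another annotated transcript of the gene. Kctd17 had 11 of 50 and 17 of 35 reads on a 6-exon model that crossed a 1492-nt intron, and its shares of 22.0% and 48.6% had overlapping intervals (11.5 to 36.0% and 31.4 to 66.0%). Pnmt, the enzyme that makes adrenaline in chromaffin cells, had 5 of 779 and 5 of 244 reads on a 2-exon model that kept its 108-nt last intron. AC149090.1, on the unplaced scaffold JH584304, had 71 of 501 and 61 of 336 reads (16.2% ± 2.82) on a 6-exon model across a 1168-nt intron; reads shared with near-identical copies elsewhere were not examined.

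The other annotated ends, 192 models in replicate 1 and 196 in replicate 2, lay mostly in an intron of the parents (107 of 192 in replicate 1), with 41 in a parent's exon and 44 in models with no parent. A retained-intron transcript of the annotation ends at the same base in 83 of the 192 and a protein-coding one in 73.
Caprin1, an RNA-binding protein of stress granules, had 2 such models that share the end shown above, one of 17 exons with 21 of 291 and 17 of 244 reads (7.09% ± 0.176) and one of 18 exons with 15 and 13 reads (5.24% ± 0.122). Sik3, a salt-inducible kinase, had 16 of 25 and 18 of 29 reads (63.0% ± 1.37) on a 14-exon model that lacks 10 introns, with 0 and 2 reads on spliced Known models. Ankrd11, a chromatin regulator, had 13 of 44 and 17 of 39 reads (36.6% ± 9.93) on a 7-exon model that lacks 6 introns.
Lrp6, a Wnt co-receptor, had 11 of 38 and 11 of 28 reads (34.1% ± 7.31) on a 2-exon model, which leaves out 21 introns and stops 878 nt into an intron of 21058 nt. Tmem164 had 16 of 45 and 12 of 31 reads (37.1% ± 2.23) on a 6-exon model. Ccdc9 had 17 of 50 and 13 of 33 (36.7% ± 3.81) on a 12-exon model. Together with its other model of the class, Ccdc9 had 33 of 50 and 21 of 33 reads (66.0% and 63.6%). Slc25a23, a mitochondrial carrier, had 7 of 15 and 19 of 33 (52.1% ± 7.71) on a 9-exon model. In each of these 4 genes both libraries stopped at the same base and their exact intervals overlapped. The transcribed pseudogene 2610005L07Rik had 16 of 43 and 7 of 21 reads (35.3% ± 2.74) on a 5-exon model whose ends lay 572 nt apart. Ankrd11, Slc25a23 and 2610005L07Rik also had 2 models each. Together these held 15 and 18 reads in Ankrd11, 8 and 21 in Slc25a23, and 19 and 9 in 2610005L07Rik.

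Models that stop in an intron at no annotated coordinate numbered 157 in each library, 140 of them of this kind in both. They left out a median of 5 introns in replicate 1, and the intron they entered was long, with a median of 3723 nt. They stopped a median of 901.5 nt past the last base that the final kept exon has in the parent. Fam120aos had nearly all its reads on such a model: 27 of 28 in replicate 1 and 34 of 35 in replicate 2 (96.8% ± 0.505), with 2 exons and ends 1 nt apart, 618 nt into an intron of 1632 nt. Abcb1b, the P-glycoprotein drug efflux pump, had 19 of 1664 and 6 of 720 reads (0.988% ± 0.218) on a 4-exon model that stopped at the same base, 987 nt into an intron of 6484 nt. No mm10 genome was used here, so the sequence past most intron ends was not analysed.

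The 107 models of replicate 1 and 109 of replicate 2 that stopped at the last base of an annotated exon left out a median of 5 introns. Of these models, 90 were of this kind in both libraries, all at the same base, which grouping by an exact coordinate in part sets. Sec62, a subunit of the protein translocation machinery of the endoplasmic reticulum, led them with a 4-exon model of 63 of 258 and 39 of 205 reads (21.7% ± 3.81) that lacks 4 introns. Plin1, the perilipin that coats lipid droplets, had 25 of 376 and 13 of 277 reads (5.67% ± 1.38) on a 6-exon model with 2 introns left out. Where an annotated exon covers the 20 bases past such an end, GT followed directly in 14 of 14 models in replicate 1 and 19 of 19 in replicate 2. GT follows nearly every exon end by the rules of splicing, so this describes the coordinate and not how the read ended.

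Models that stopped inside an annotated exon numbered 79 and 74. Son, a large protein of nuclear speckles, had 64 of 81 reads in replicate 1 and 28 of 37 in replicate 2 (77.3% ± 2.36) on a 3-exon model that stopped within its long coding exon, against 2 and 0 reads on spliced Known models. Ccnl2, a cyclin tied to splicing, had 48 of 253 and 38 of 177 reads (20.2% ± 1.77) on a 6-exon model with ends 307 nt apart. Plin5, which links lipid droplets to mitochondria, had 19 of 270 and 18 of 248 reads (7.15% ± 0.156) on an 8-exon model that spanned an intron of 328 nt and stopped at the same base in both libraries. Fzd3, a Wnt receptor, had 11 of 12 and 8 of 9 reads on its 4-exon model.

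The AATAAA or ATTAAA hexamer was searched on the strand of the gene in the last 50 bases of each model, wherever an annotated exon covers them. In replicate 1 it was present in 221 of 274 models that span an intron to an annotated end (80.7%), 103 of 185 at other annotated ends (55.7%), 26 of 49 inside an annotated exon (53.1%) and 16 of 103 at the last base of an exon (15.5%). In replicate 2 these were 216 of 271 (79.7%), 107 of 189 (56.6%), 21 of 46 (45.7%) and 17 of 105 (16.2%). Over all windows of 50 bases in the same exons of the replicate 1 models, it was present in 6.56%, 5.21%, 5.50% and 5.32%. It was present in 49.3% of 49479 distinct annotated 3′ ends of multi-exon protein-coding transcripts. The share inside exons, at no annotated end, was near the 49.3% of all those annotated ends. It was below both kinds of models at annotated ends in each library, and rests on 49 and 46 models. The share at exon ends was the lowest of these kinds. A match is a description of letters and not a shown site of cleavage.

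A count of at least 12 A in the 20 bases past the end, called A-rich here, could be taken where an annotated exon covers them. At other annotated ends 22 of 55 models in replicate 1 (40.0%) and 21 of 57 in replicate 2 (36.8%) were A-rich, with 3.16% of all such windows in the same exons. Among models that span an intron to an annotated end these were 6 of 91 (6.59%) and 7 of 95 (7.37%), with 1.21% of windows. Inside an annotated exon 5 of 52 (9.62%) and 8 of 46 (17.4%) were A-rich, with 1.64% of windows. The windows that can be read are those where another annotated transcript continues, which is a minority at annotated ends. Whether priming within A-rich sequence took part in these ends was not tested.

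The ends agreed between the libraries more often than not. The 3′ end lay at the same base in 542 of 817 models and within 20 nt in 632 (77.4%), and 79 models had ends over 1000 nt apart. Within 20 nt lay 85.9% of Suffix chains, 83.9% of NIC chains and 85.7% of NNC chains, the last 2 being classes with new combinations of splice sites and with new splice sites. Models at annotated ends in both libraries lay within 20 nt in 92.0% (an intron spanned, 249 models) and 95.4% (other annotated ends, 175 models). Grouping by an exact annotated coordinate in both libraries in part sets that agreement. Whether ends were placed on the annotation was not tested, so these shares cannot be read as reads agreeing better. Among the 206 models on no annotated 3′ end or exon end in either library, 94 had the same end base and 142 (68.9%) lay within 20 nt. Of the 140 in introns at no annotated coordinate in both libraries, 56 had the same end base and 99 (70.7%) lay within 20 nt. Star had ends 989 nt apart, in an intron in replicate 1 and in an annotated exon in replicate 2.

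**Figure D4:**
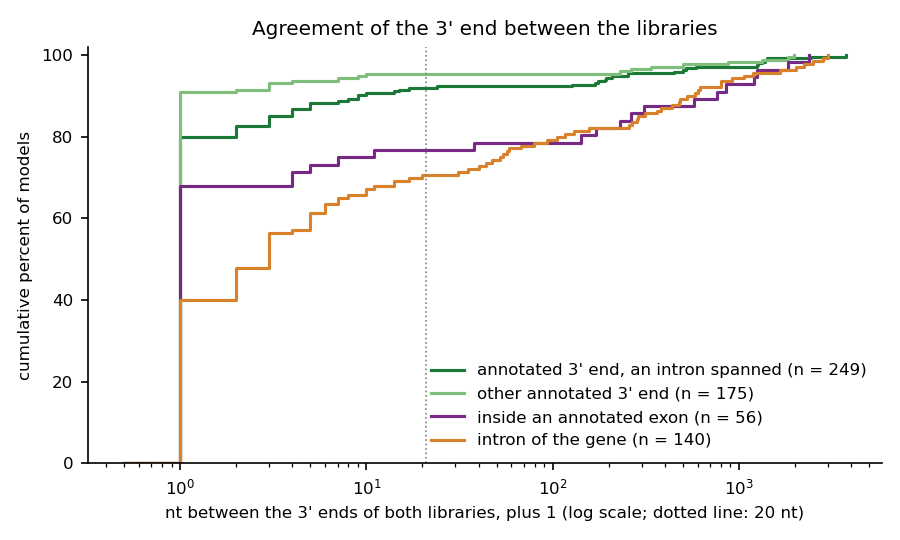
Cumulative percent of models by the distance between the 3′ ends of both libraries, in nt plus 1 on a log axis, for models of the same kind of end in both libraries; the dotted line marks 20 nt. At 20 nt the curve for ends in introns (n = 140) stands at 70.7%, below that for annotated ends after a spanned intron (n = 249, 92.0%). Grouping by an exact annotated end in both libraries in part sets the agreement in the curves for annotated ends.

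Of the models deep enough to test, 1 differed between the libraries in its share of the gene's reads. Fisher's exact test (two-sided, adjusted over 13132 chains with at least 10 summed reads) called 92 chains, or 0.701%, and 1 of the 116 tested models. At an unadjusted p below 0.05 the count was 9 of 116 models and 963 of all chains. The called model was that of Psmd1, a subunit of the proteasome's regulatory particle, with 22 exons, 39 of 170 reads in replicate 1 and 9 of 132 in replicate 2. Its share was 22.9% (exact 95% interval 16.9 to 30.0%) and 6.82% (3.16 to 12.5%), higher in replicate 1 (adjusted p = 0.0233, Fisher's exact test), and the intervals do not overlap. It stops at the end of an annotated nonsense-mediated decay transcript. With no filter on summed reads the call was lost (adjusted p = 0.0603, the same exact test). The count of 1 in 116 models is near the share called over all chains.

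**Figure D5:**
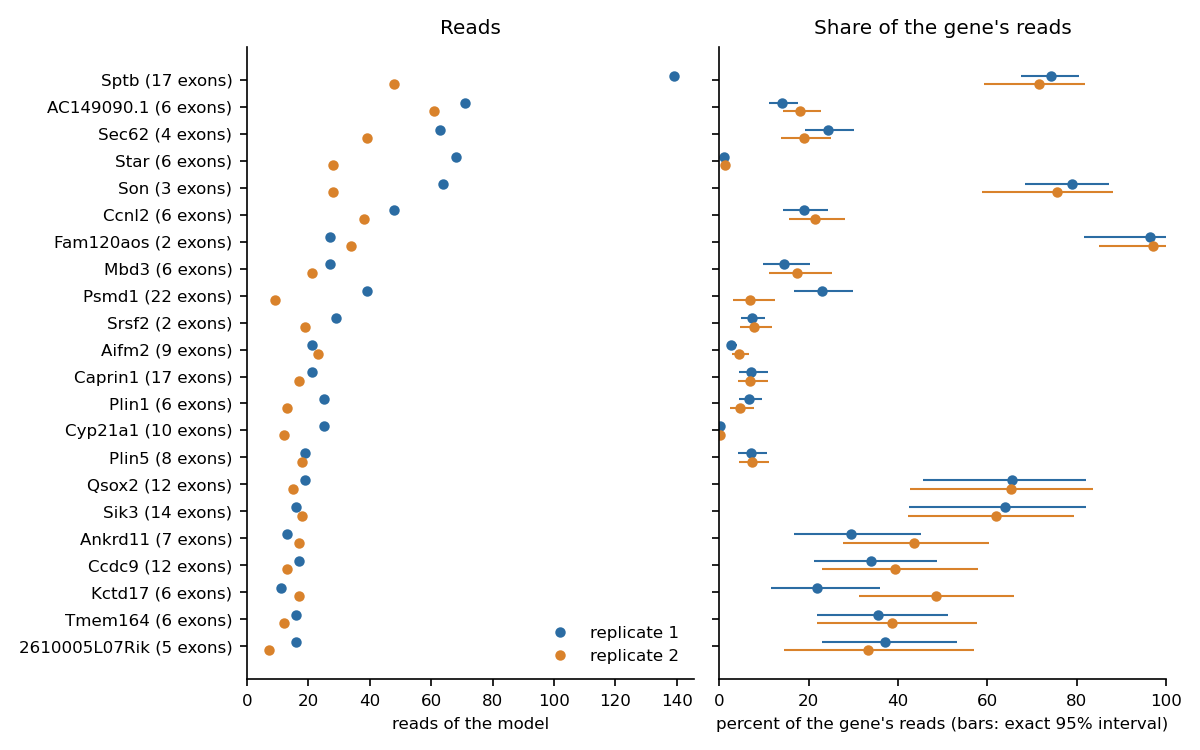
Reads (left) and percent of the gene's reads with exact 95% intervals (right) in replicate 1 (blue) and replicate 2 (orange) for the 22 models with the most reads or the highest shares. The intervals of both libraries overlap for every model plotted except Psmd1.

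By reads the class was led by Sptb, the beta spectrin of the red cell membrane skeleton, whose 17-exon model had 139 of 187 reads in replicate 1 and 48 of 67 in replicate 2 (73.0% ± 1.90). Its chain is not the beginning of any annotated chain, it stops at an annotated protein-coding end, and spliced Known models of the gene had 0 reads in either library. Aifm2 had 21 of 795 and 23 of 516 reads (3.55% ± 1.28) on a 9-exon model, also with no annotated parent and at annotated ends 6 nt apart. In all, 86 models had more reads than the multi-exon Known models of their gene in both libraries. In 58 models the gene had no such Known read in either. Some of the 86 rest on 1 read in each library against 0 Known reads. Most reads of a gene can also lie in other classes, so the count does not show that these models lead their genes.
Among 596 models whose genes reached 20 reads in both libraries, 30 held at least 10% of the gene's reads in both. The highest shares were those of Fam120aos, Son, Sptb, Qsox2 and Sik3. A model with many reads could hold a small share of its gene: Star, which brings cholesterol into mitochondria, had 68 of 6374 and 28 of 2232 reads, only 1.16% ± 0.133 of the gene.

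Genes of steroid synthesis often had such models, which held a small share of their reads. Of 19 genes of this list that reached 20 reads in both libraries, 11 had at least 1 of the models, against 501 of all 5969 such genes (8.39%), but list genes were more deeply read, with a median of 895 summed reads against 132. Their 19 models held 0.312% of the list's reads in replicate 1 and 0.348% in replicate 2. Over all genes the models held 0.291% and 0.232% of gene reads. Of the list's models, 0 of the 10 tested passed the test. Cyp11a1, the side-chain cleavage enzyme that starts steroid synthesis, had 5 models with 35 of 22720 and 16 of 8539 reads, 3 of which spanned its last intron or introns to an annotated end. Cyp21a1, the 21-hydroxylase, had 25 of 11998 and 12 of 5110 reads (0.222% ± 0.0187) on a 10-exon model with no annotated parent.
Akr1cl, an aldo-keto reductase, had 6 models with 37 of 2884 and 20 of 1127 reads, second in number to the 7 of AC149090.1, and Ggnbp2 had 5, as did Cyp11a1 and Plin1. Plin1 had 56 of 376 and 42 of 277 reads on its 5 models, 14.9% and 15.2% of the gene.

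Splicing factors had the highest read share of the lists looked up, most of it from Hnrnpa2b1 and Srsf2. Of the 89 and 63 reads on models of this list in replicates 1 and 2, Hnrnpa2b1 held 47 and 29. Srsf2 held 31 and 22. The 9 models in Hnrnpa2b1, Hnrnpd, Hnrnpdl and Srsf2, 4 of 15 list genes that reached 20 reads in both libraries, held 1.80% and 2.06% of the list's reads, and 0 of the 5 tested passed. For comparison, 8.39% of all genes at that read number had a model, and all models held 0.291% and 0.232% of gene reads. Median summed reads were 368 for the splicing list, 827 for the chromaffin list, 1843.5 for the respiratory list and 109 for the cleavage list, against 132 over all such genes. Hnrnpa2b1 had 4 models with 47 of 1176 and 29 of 748 reads (4.00% and 3.88%), the leading one of 9 exons across a 1977-nt intron in the 3′ UTR.
The chromaffin list had models in 3 of 10 such genes, Chgb, Pnmt and Scg2, with 0.109% and 0.196% of its reads. Chgb, a granin of chromaffin granules, had 9 of 4738 and 4 of 1685 reads on its 4-exon model. Respiratory chain and ATP synthase genes had models in 4 of 18, with 0.0667% and 0.0514% of reads: Atp5c1 had 7 of 814 and 4 of 757, across 2 introns, and Cyc1 4 of 1311 and 3 of 1300 across an intron of 77 nt.
Of the X zone and aldo-keto reductase list, which does not hold Akr1cl, 2 of 4 genes had a model: Pik3c2g with 7 of 93 and 2 of 24 reads and Cyp2f2 with 1 read in each library. Factors of cleavage, polyadenylation and U1 snRNP had models in 3 of 17 such genes, and Cdk13 below that read number; Papola, the poly(A) polymerase, and Cdk13 had 2 reads in each library. Genes known for transcripts that end in an intron, the hepatocyte list and the muscle list held 0 models, with 2, 10 and 3 genes at that read number. In the hepatocyte list replicate 2 alone gave 34 Prefix models with 57 of 110024 reads (0.0518%), and replicate 1 gave 1 model with 1 of 2889 reads.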

How the data were processed

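Per the file headers, the authors deposited a table of unscaled read counts per transcript model with TALON classes for each library, and a matching mm10 transcript annotation (GENCODE M21). Which aligner, TALON version and read filters were used is not given in the sources used here. Models were matched between libraries by gene and intron chain, and only models of annotated genes without spike-ins were used. Ends were compared with GENCODE M21 on mm10, the build of the files; sequences came from its transcripts. Replicate 1 had 1143111 reads and replicate 2 991731, which limits precision at best to the exact 95% Clopper-Pearson intervals given.

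Shares were compared by two-sided Fisher's exact tests with Benjamini-Hochberg adjustment at 0.05 (Python 3.11.15, scipy 1.17.1), tested on simulated data. edgeR 4.0.16 (TMM) and DESeq2 1.42.0 gave scaling factors for alternatives only. No columns were left unused. The models and gene lists were chosen with earlier results of these data known. Models were named by a rule: the 15 with most reads, the 10 with the highest share in genes with 20 reads in each library, 2 per gene list, those past the test, the 10 best-read ending in an intron within 20 nt, and the 5 genes with most models; Fzd3, Fam120b, Luc7l2, Kmt2e, Hcfc2 and Qrsl1 were added for their sequences after their values were seen, as was the split into kinds of end. The sequence at 1 end is not reported here.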

Additional observations from a re-analysis of the deposited data

How the results depend on the processing

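No paired analysis was possible because both libraries belong to 1 group. The 817 models became 260 at a minimum of 2 reads in each library and 75 at 5, and 907 with subtype Both added or 978 with Prefix in either library; single libraries gave 2826 to 3679 chains. The share of gene reads in replicates 1 and 2 was 0.204% and 0.159% at a minimum of 2 reads, 0.130% and 0.0994% at 5, 0.951% and 0.568% with subtype Both, and 0.656% and 0.497% over every Prefix model. The intron share was 19.4% and 19.3% when any exon of the gene counted, 31.9% and 29.0% at a minimum of 5 reads, and 36.3% to 38.5% when one library was left out. Ends within 20 nt were 85.3% at a minimum of 5 reads and 68.9% on no annotated coordinate, an alternative chosen after seeing the data. The count of called models, 1 in the test as reported, was 0 with no filter on summed reads, where more chains share the adjustment, 7 by the exact binomial test with totals of gene reads, and 6 with TMM factors or DESeq2 size factors. These binomial tests compare levels, not shares of the gene: of all chains they called 1891, 1514 and 1480. Their calls split 5 higher in replicate 1 and 2 higher in replicate 2 with totals, 3 and 3 with TMM, and 2 and 4 with DESeq2 size factors. The lower Prefix share in replicate 2 kept its direction and its call under each alternative run, with ratios of 0.630 (Prefix or Both), 0.747 (multi-exon reads) and 0.842 (without the genes that differed over 16-fold). Depth limits the thinly read models: those with 1 read in each library show that a chain was seen, not at what share.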
